A study of Mus musculus with 6 samples.

Results

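The genes described here are 36 hypoxia targets and glycolysis enzymes of the mouse, given as a list and followed gene by gene through peaks of open chromatin and of Tfcp2l1 binding. They are 36 of 21827 protein-coding genes tested. The list is not defined by any measured value, but it was chosen with earlier results of these data known. Most are known targets of the hypoxia-inducible factors. In cells with ample oxygen the alpha subunit of these factors is hydroxylated and degraded, and in hypoxia it persists, pairs with its partner and binds hypoxia response elements, short sites with the core ACGTG or GCGTG. The targets raise glucose uptake and glycolysis, divert pyruvate from the mitochondria to lactate, remove mitochondria, control pH, call in blood vessels and modify collagen.

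Open chromatin was measured by ATAC-seq, in which a transposase cuts accessible DNA, in mouse embryonic fibroblasts (MEFs) from C57BL/6J embryos (E13.5). The 4 libraries are labelled as MEFs at passage 1 in normoxia (20% O2, Norm-Pro), senescent MEFs in normoxia (Norm-Sen), MEFs at passage 1 in hypoxia (3% O2, Hyp-Pro) and immortalized MEFs in hypoxia (Hyp-Imm). The 2 ChIP-seq libraries, made with an antibody to the transcription factor Tfcp2l1, come from senescent MEFs in normoxia and immortalized MEFs in hypoxia. All cells were wild type, and MEFs are a mixed culture grown from whole embryos without head and red organs.

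Each condition has 1 library, so replicate error could not be measured and conditions were compared without tests. The passage 1 pair differs in oxygen, whereas the late pair, Norm-Sen and Hyp-Imm, also differs in proliferative state, and the contributions of oxygen and state cannot be told apart there. The sample labels and the names of the deposited ATAC-seq files disagree: in all 4 cases they state different conditions, with the oxygen level exchanged. By the file names, Norm-Pro would be Hyp-Imm, Norm-Sen would be Hyp-Pro, Hyp-Pro would be Norm-Pro and Hyp-Imm would be Norm-Sen. The labels are used below, and counts by oxygen are also given by the file names, under which the sets of both 20% and both 3% libraries are exchanged.

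The ATAC-seq lists held from 37770 peaks (Hyp-Imm) to 69122 (Norm-Pro), and the steps of their fold values give a background of 0.445 reads per position in Hyp-Imm, the lowest, and of 1.77 in Norm-Sen, the highest. Of 10 fibroblast markers, 3 had a peak at a transcription start site (TSS) in Hyp-Imm and 6 in each of the other libraries, and Col3a1 and Prrx1 had none in any. Of 5 blood markers, Ptprc, Csf1r and Itgam had none, and at most 1 had a TSS peak in a library. Of 5 endothelial markers 1 or 2 had a TSS peak in each library, as had 1 or 2 of 5 epithelial markers.

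Sequences are shown first for the open start sites and introns on which the results below turn. They were read from the RefSeq copy of GRCm38 at the places of the peaks, except that of Vegfa, 5′ to 3′ on the strand of the gene, without exons of protein-coding genes. Capitals mark the core of a hypoxia response element, ACGTG or GCGTG or their reverse complements CACGT and CACGC. A match is a run of letters and not a shown binding site. The first 4 are open start sites present in all 4 libraries: that of Ldha, the subunit of lactate dehydrogenase that turns pyruvate into lactate, that of Bnip3, a receptor for mitochondrial removal, that of P4ha1, a subunit of collagen prolyl hydroxylase, and that of Ankrd37, an ankyrin repeat protein. Those of Bnip3, P4ha1 and Ankrd37 were chosen after their values were seen.
Ldha, chr7:46845699-46845838, plus strand: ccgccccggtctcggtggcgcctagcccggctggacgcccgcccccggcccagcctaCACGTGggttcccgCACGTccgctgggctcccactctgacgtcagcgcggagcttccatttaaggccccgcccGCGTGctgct
Bnip3, chr7:138909507-138909797, minus strand: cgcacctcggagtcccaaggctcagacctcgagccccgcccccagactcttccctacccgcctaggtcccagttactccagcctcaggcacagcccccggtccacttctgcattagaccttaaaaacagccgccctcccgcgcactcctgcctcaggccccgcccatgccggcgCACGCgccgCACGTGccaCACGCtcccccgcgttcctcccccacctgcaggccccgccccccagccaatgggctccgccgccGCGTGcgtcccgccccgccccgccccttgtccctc
P4ha1, chr10:59323160-59323295, plus strand: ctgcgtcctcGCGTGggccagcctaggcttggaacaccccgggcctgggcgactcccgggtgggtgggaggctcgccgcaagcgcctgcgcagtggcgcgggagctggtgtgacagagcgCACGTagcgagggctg
Ankrd37, chr8:45999886-46000185, minus strand: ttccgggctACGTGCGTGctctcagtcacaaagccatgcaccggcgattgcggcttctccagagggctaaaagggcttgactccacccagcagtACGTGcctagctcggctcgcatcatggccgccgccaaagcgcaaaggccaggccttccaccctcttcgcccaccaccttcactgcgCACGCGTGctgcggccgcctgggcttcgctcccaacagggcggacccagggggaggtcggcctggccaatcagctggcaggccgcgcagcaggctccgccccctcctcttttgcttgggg

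The next are the start site of Eno2, the neuronal enolase and the only member with a TSS peak in both normoxic and neither hypoxic library, and the 200 bases upstream of the annotated 5′ end of Vegfa, the main growth factor for blood vessels. Neither sequence holds a core, which says only that these letters are not in these windows.
Eno2, chr6:124769674-124769769, minus strand: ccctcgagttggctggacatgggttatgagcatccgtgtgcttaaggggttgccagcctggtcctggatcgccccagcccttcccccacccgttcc
Vegfa, chr17:46032370-46032569, minus strand: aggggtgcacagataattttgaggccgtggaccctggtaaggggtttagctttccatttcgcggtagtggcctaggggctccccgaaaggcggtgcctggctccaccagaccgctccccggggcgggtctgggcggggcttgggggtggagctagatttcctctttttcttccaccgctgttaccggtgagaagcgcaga

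The last pair are introns that were open in all 4 libraries, also chosen after their values were seen. They lie in Pfkfb3, which makes the activator of phosphofructokinase, and in P4ha2, the second collagen prolyl hydroxylase subunit.
Pfkfb3, chr2:11535471-11535770, minus strand: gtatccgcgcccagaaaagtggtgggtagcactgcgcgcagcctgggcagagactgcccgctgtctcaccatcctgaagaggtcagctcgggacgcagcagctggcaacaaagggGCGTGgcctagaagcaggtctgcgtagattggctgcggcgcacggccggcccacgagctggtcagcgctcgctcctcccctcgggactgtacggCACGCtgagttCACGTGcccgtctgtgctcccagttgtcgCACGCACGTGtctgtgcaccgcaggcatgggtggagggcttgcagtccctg
P4ha2, chr11:54112907-54113206, plus strand: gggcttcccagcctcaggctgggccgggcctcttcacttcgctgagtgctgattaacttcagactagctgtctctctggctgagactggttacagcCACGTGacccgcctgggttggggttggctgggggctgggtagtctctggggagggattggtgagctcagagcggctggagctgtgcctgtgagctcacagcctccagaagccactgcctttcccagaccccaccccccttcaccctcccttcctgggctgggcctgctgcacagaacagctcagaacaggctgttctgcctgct

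The start sites of the members were open more often than those of genes in general in each of the 4 libraries. A gene was counted as open at the TSS when a peak lay within 1 kb of any of its annotated starts. In Norm-Pro, 31 of 36 members were open (86.1%, 95% exact Clopper-Pearson interval 70.5 to 95.3), beside 52.6% of all genes. In Norm-Sen 29 were open (80.6%, 64.0 to 91.8) beside 50.7%, and in Hyp-Pro 26 (72.2%, 54.8 to 85.8) beside 47.4%. In Hyp-Imm 22 were open (61.1%, 43.5 to 76.9) beside 33.4%. Each interval lay above the share of all genes. With the annotated 5′ end of the gene alone as the start, 27 members were open in Norm-Pro (75%, 57.8 to 87.9, beside 49.3%), 22 in Hyp-Pro (61.1%, 43.5 to 76.9, beside 44.2%), 25 in Norm-Sen (69.4%, 51.9 to 83.7, beside 47.5%) and 16 in Hyp-Imm (44.4%, 27.9 to 61.9, beside 30.8%), and the intervals of both hypoxic libraries then include the share of all genes. The intervals cover counting error only, and the members were not set against genes of like expression.

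**Figure D1:**
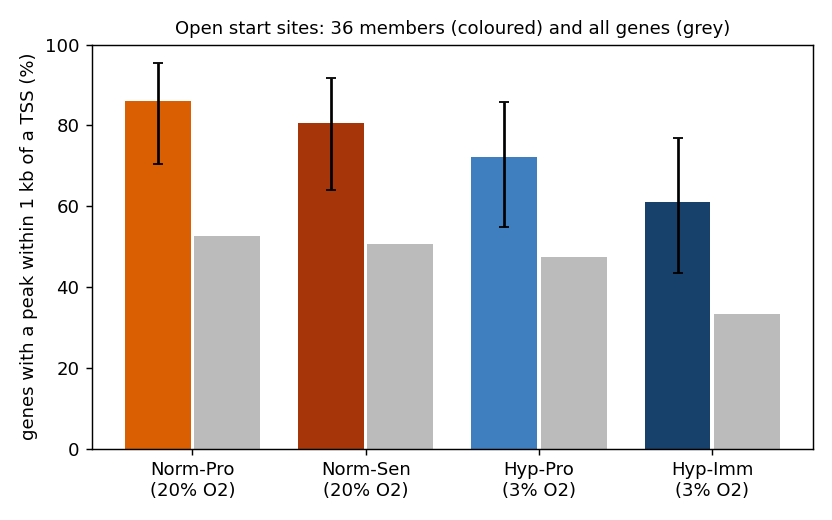
Percent of genes with an ATAC-seq peak within 1 kb of a TSS (y axis) in each library (x axis), for the 36 members (coloured, with 95% exact intervals) and for all 21827 genes (grey). Members range from 86.1% in Norm-Pro to 61.1% in Hyp-Imm, and all genes from 52.6% to 33.4%.

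A total of 18 members were open in all 4 libraries (50%, against 25.2% of all genes). They included the 4 genes of transcription and chromatin (Kdm3a, a histone demethylase, Mxi1, an antagonist of Myc, Bhlhe40, a repressor of the clock, and Ankrd37) and both genes of mitochondrial removal (Bnip3 and Bnip3l). The 6 members Hk2, Pfkl, Pfkp, Pfkm, Pkm and Ndrg1 were open in every library but Hyp-Imm (16.7%, against 11.9%). Those comprise 3 phosphofructokinase subunits, hexokinase 2, the gene of pyruvate kinase and a stress response gene. The background of Hyp-Imm was the lowest of the 4, and its part in these missing peaks was not tested. Car9, a carbonic anhydrase on the cell surface, and Adm, the vasodilator adrenomedullin, had no TSS peak in any library (5.56%, against 34.9%).

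Between the passage 1 libraries 29 members had the same state (80.6%, against 82.3% of all genes). Of the 36 members 25 were open in both (69.4%, against 41.2%) and 4 in neither (11.1%, against 41.2%). The 6 members Pfkfb4, Aldoc, Eno2, Slc16a3, Car12 and Lox were open at 20% and not at 3% oxygen (16.7%, 6.37 to 32.8, against 11.4% of all genes). Only Tpi1, triose phosphate isomerase, was open at 3% and not at 20% (2.78%, 0.0703 to 14.5, against 6.23%). The interval of each share includes the background.

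Between the late libraries 27 members had the same state (75%, against 73.4%). Of the 36 members 21 were open in both (58.3%, against 28.8%) and 6 in neither (16.7%, against 44.7%). A total of 8 members were open in Norm-Sen and not in Hyp-Imm, namely Hk2, Pfkl, Pfkp, Pfkm, Eno2, Pkm, Vegfa and Ndrg1 (22.2%, 10.1 to 39.2, against 22.0% of all genes). The reverse was found for Slc2a3, the high-affinity glucose transporter (1 member, 2.78%, against 4.60%). Among genes open in at least 1 of the 2 libraries, 8 of 30 members were open in Norm-Sen alone (26.7%, against 39.7% of 12079 genes) and 21 in both (70.0%, against 52.0%). Among peaks with a −log10 q of at least 5, 14 members were open in Norm-Sen and not in Hyp-Imm (against 21.9% of all genes), and Slc2a1, Tpi1, Ldha and Bnip3 showed the reverse (against 1.79%). Across both pairs, Eno2 alone was open in both 20% libraries and neither 3% library (1 member, against 4.11% of genes), and no member showed the reverse (0 of 36, interval up to 9.74%, against 0.467%).

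Stages were also compared at 1 oxygen level. At 20% oxygen 4 members (Aldoc, Slc16a3, Car12 and P4ha2) were open at passage 1 and not in senescent MEFs (11.1%, against 9.30% of all genes), and Tpi1 and Vegfa showed the reverse (5.56%, against 7.43%). At 3% oxygen 7 members (Hk2, Pfkl, Pfkp, Pfkm, Pkm, P4ha2 and Ndrg1) were open at passage 1 and not in immortalized MEFs (19.4%, against 19.5%), and Slc2a3, Pfkfb4 and Lox showed the reverse (8.33%, against 5.44%).

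Read by the file names, the passage 1 pair had 1 member open at 20% only (P4ha2, background 7.33%) and 4 at 3% only (Pfkfb4, Eno2, Vegfa and Lox, background 10.7%). The late pair then had 2 members open at 20% only (Slc2a3 and Tpi1, background 3.83%) and 11 at 3% only (Hk2, Pfkl, Pfkp, Pfkm, Aldoc, Eno2, Pkm, Slc16a3, Car12, P4ha2 and Ndrg1, background 23.1%). The side with more open members is exchanged under this reading, for the members and for all genes alike.

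The strength of a peak was compared by its percentile in the −log10 q of its own library, where 100 is the strongest peak. The strongest TSS peak of the open members had a median percentile of 94.98 in Norm-Pro, 91.7 in Hyp-Pro, 89.5 in Norm-Sen and 87.7 in Hyp-Imm. For all open genes the medians were 88.5, 83.4, 86.0 and 78.4. The lowest member stood at 26.3 in Norm-Pro, 42.4 in Hyp-Pro, 18.3 in Norm-Sen and 49.5 in Hyp-Imm.

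**Figure D2:**
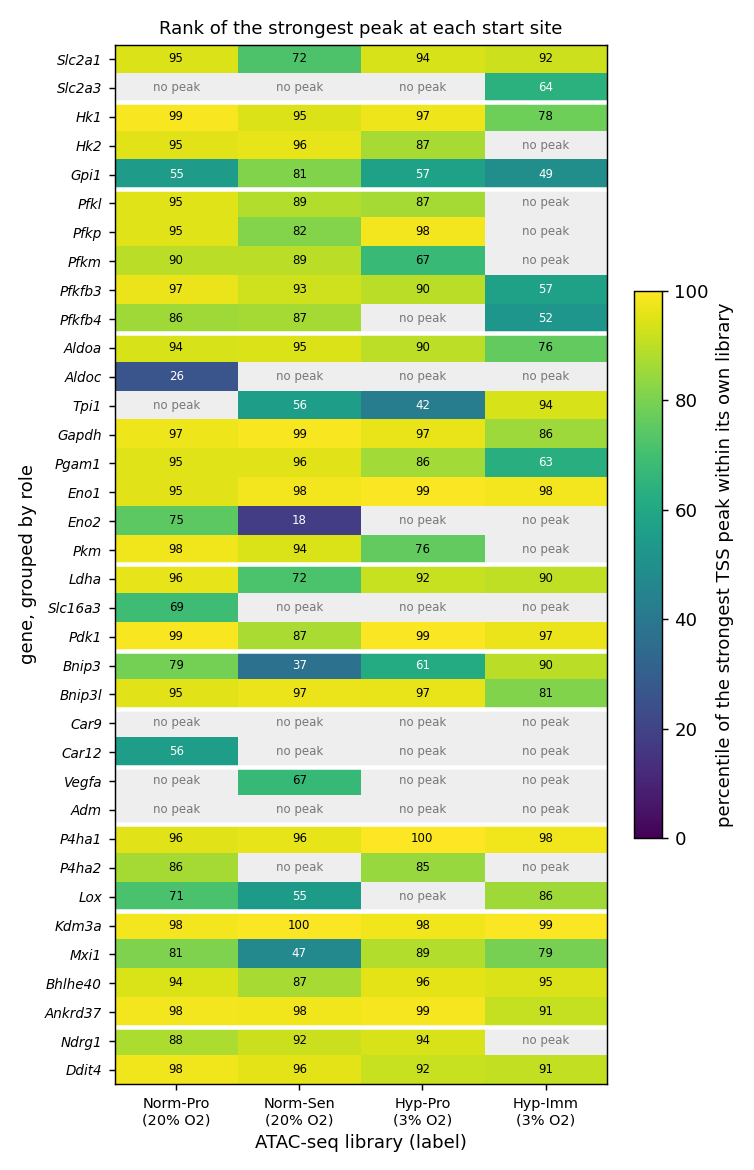
Percentile of the strongest TSS peak of each member (rows, grouped by role) among all peaks of its own library, for the 4 ATAC-seq libraries (columns). Slc2a1, Ldha, Pdk1, Bnip3, Mxi1 and Bhlhe40 are lowest in Norm-Sen, and Pfkfb3, Pgam1, Gapdh and Aldoa are lowest in Hyp-Imm.

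Of the glucose transporters, Slc2a1 (GLUT1), which sets the basal uptake, was open in all 4 libraries and ranked at percentile 94.6 in Norm-Pro, 93.8 in Hyp-Pro, 72.2 in Norm-Sen and 92.5 in Hyp-Imm. Norm-Sen was the low library. A region at -2785 bp from the TSS was found in both normoxic libraries (83.7 in Norm-Sen and 39.0 in Norm-Pro) and in neither hypoxic one. An intronic region 12720 bp into the gene ranked at 97.6 in Norm-Pro and 28.5 in Hyp-Pro and had no peak in the late libraries. Slc2a3 had its single TSS peak in Hyp-Imm (63.9), centred 741 bp downstream of its start, which lies inside the annotated gene, and an intronic peak 2604 bp from that start in Norm-Pro (26.8) and Norm-Sen (93.7).

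Hexokinases trap glucose in the cell as its phosphate. Hk1, the constitutive form, ranked at 98.9, 97.4 and 94.8 in Norm-Pro, Hyp-Pro and Norm-Sen and at 77.8 in Hyp-Imm. These Hk1 peaks lay at an internal start, and no library had a peak within 1 kb of the annotated 5′ end. Hk2, the inducible form, ranked at 95.4, 87.0 and 96.1 in Norm-Pro, Hyp-Pro and Norm-Sen and had no TSS peak in Hyp-Imm. Gpi1, glucose phosphate isomerase, had weaker promoter peaks, at 54.9 in Norm-Pro, 57.4 in Hyp-Pro, 81.0 in Norm-Sen and 49.5 in Hyp-Imm, the last at a separate place 371 bp inside the gene. A region at -3783 bp from the Gpi1 start was open in all 4 libraries and outranked the promoter in 3 of them, at 62.8 in Hyp-Imm, 89.6 in Norm-Sen and 97.9 in Norm-Pro, but not in Hyp-Pro (16.2).

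The phosphofructokinase subunits catalyse the committed step of glycolysis. Pfkl (liver), Pfkp (platelet) and Pfkm (muscle) were open in Norm-Pro (94.98, 95.1 and 89.8), Hyp-Pro (86.7, 98.4 and 67.3) and Norm-Sen (88.7, 81.5 and 89.5). None of the 3 had a TSS peak in Hyp-Imm. The Hyp-Pro value of Pfkl is from a region centred 386 bp downstream of its start, and at the start Hyp-Pro ranked at 76.6. The Pfkm values are also from different places. Those of Hyp-Pro and Norm-Sen are from the 5′ end, which also lies within 1 kb of the start of the neighbour Senp1, where the 2 genes cannot be told apart, and that of Norm-Pro is from an internal start of Pfkm. At the place shared with Senp1 Norm-Pro ranked at 72.1, and at the internal start Hyp-Pro ranked at 55.9 and Norm-Sen had no peak.

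The enzymes Pfkfb3 and Pfkfb4 set the level of fructose 2,6-bisphosphate, which activates phosphofructokinase. Pfkfb3 was open at an internal start in all 4 libraries, at 97.0 in Norm-Pro, 89.6 in Hyp-Pro, 92.8 in Norm-Sen and 57.2 in Hyp-Imm. Its annotated 5′ end ranked at 94.5 in Norm-Pro, 59.2 in Hyp-Pro and 32.3 in Norm-Sen and had no peak in Hyp-Imm. The Pfkfb3 intron shown above, 18457 bp from the nearest start, ranked at 92.0, 96.6, 97.0 and 92.3 in Norm-Pro, Hyp-Pro, Norm-Sen and Hyp-Imm. That is above the internal start in 3 of the 4 libraries. Pfkfb4 ranked at 86.6 in Norm-Sen, 85.9 in Norm-Pro and 52.5 in Hyp-Imm and had no peak in its gene or 5 kb around it in Hyp-Pro.

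In lower glycolysis, Gapdh and Eno1 (enolase 1) had strong start sites in every library. Gapdh ranked at 97.5 in Norm-Pro, 96.6 in Hyp-Pro, 99.1 in Norm-Sen and 85.5 in Hyp-Imm. Eno1 ranked at 95.4, 99.5, 98.2 and 98.1 in the same order. The ubiquitous aldolase Aldoa (94.1, 90.2, 94.6 and 75.9) and phosphoglycerate mutase 1 (Pgam1: 95.2, 86.2, 95.6 and 63.1) shared the lowest rank in Hyp-Imm with Gapdh, and Eno1 did not.

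Other enzymes of that stretch had no peak in some libraries. Tpi1 ranked highest in Hyp-Imm, at 93.9 against 55.8 in Norm-Sen and 42.4 in Hyp-Pro, with no TSS peak in Norm-Pro. Pkm ranked at 97.9 in Norm-Pro, 76.1 in Hyp-Pro and 94.2 in Norm-Sen. Eno2 had its peak at 74.6 in Norm-Pro and 18.3 in Norm-Sen, and that of Norm-Sen was among the weak peaks of its library. When only the strongest 37770 peaks of each library were kept, the Norm-Sen peak of Eno2 was lost. No member was then open in both normoxic libraries alone (against 2.99% of all genes). Aldoc, the brain aldolase, had 1 weak TSS peak (26.3 in Norm-Pro).

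The fate of pyruvate is set by Ldha, by Pdk1, a kinase that shuts off pyruvate dehydrogenase, and by Slc16a3 (MCT4), which exports lactate. The Ldha start ranked at 96.1 in Norm-Pro, 91.7 in Hyp-Pro, 71.6 in Norm-Sen and 90.5 in Hyp-Imm, with fold enrichments of 6.38, 5.88, 4.18 and 6.05. Fold values, here and for Pdk1 below, are not comparable between libraries. Their medians over all peaks were 4.47, 4.8, 4.29 and 4.84 in the same order. The 3 cores in the Ldha sequence above include a palindromic CACGTG. The start nearest to the peak lies inside the annotated gene and not at its 5′ end, as the plot of peaks along the genes shows. A second Ldha region, centred 189 bp from an internal start, was the only region near a member found in both hypoxic and neither normoxic library, at 38.5 in Hyp-Pro and 1.39 in Hyp-Imm, both weak. It begins at position 46845949, directly beside the Ldha start region of all 4 libraries, which ends at 46845945.

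Pdk1 was lowest in Norm-Sen as well, with 99.0 in Norm-Pro, 99.5 in Hyp-Pro, 87.4 in Norm-Sen and 97.1 in Hyp-Imm and fold enrichments of 9.00, 10.6, 4.99 and 7.88. Slc16a3 had a TSS peak in Norm-Pro alone (68.9). An intronic peak of Slc16a3 1925 bp from the start was shared by both passage 1 libraries (81.9 in Norm-Pro and 78.7 in Hyp-Pro), and the late libraries had no peak in or within 5 kb of the gene.

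**Figure D3:**
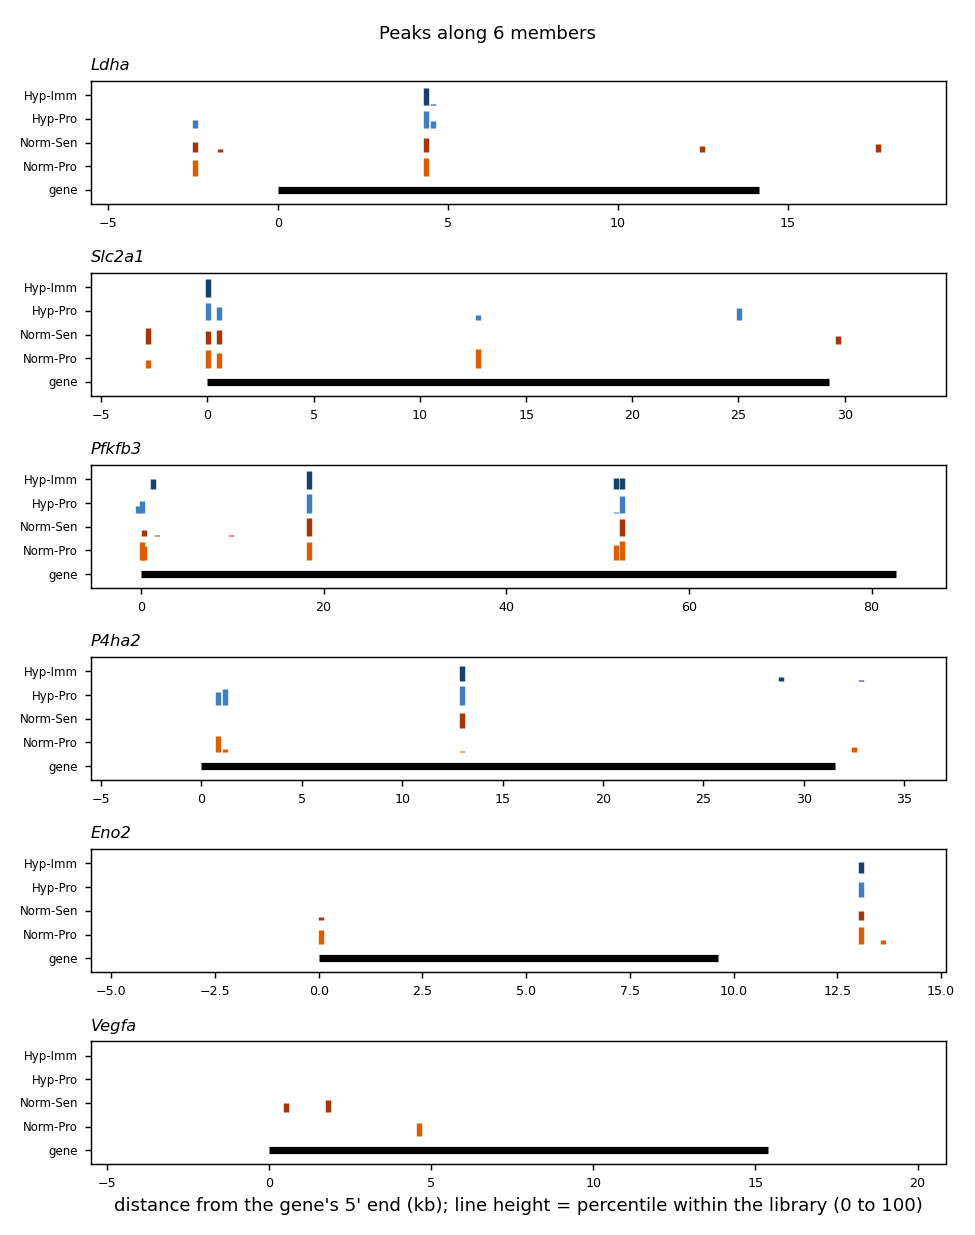
Peaks along Ldha, Slc2a1, Pfkfb3, P4ha2, Eno2 and Vegfa by distance from the 5′ end of the gene (x axis, kb), with 1 row per library and line heights in proportion to the percentile within the library (0 to 100). The black bar is the gene, drawn in its direction of transcription, and all 4 libraries share the Ldha start and introns of Pfkfb3 and P4ha2.

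Of the mitophagy receptors, Bnip3 ranked at 79.2 in Norm-Pro, 61.3 in Hyp-Pro, 37.4 in Norm-Sen and 89.8 in Hyp-Imm. Among the 18 members open in all 4 libraries it alone ranked highest in Hyp-Imm by −log10 q, as did 13.49% of all such genes. By fold enrichment Slc2a1, Bnip3 and Bhlhe40 did (3 members, against 16.9%). Bnip3l, its relative, ranked at 95.5, 96.7, 97.1 and 81.1 in the same order and was lowest where Bnip3 was highest.

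The pH and vascular genes were the least open group. Car9 had no TSS peak, but a region on an exon 1821 bp from the start was found at passage 1 (48.5 in Norm-Pro and 36.3 in Hyp-Pro). Car12, a second carbonic anhydrase, had a TSS peak in Norm-Pro alone (55.6). Adm had peaks only beyond its 3′ end in Norm-Pro (58.5 and 91.3).

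Vegfa had a TSS peak in Norm-Sen alone, in fact a pair, at 66.9 for the peak 800 bp downstream of a start and 49.9 for the peak 21 bp upstream of another. An intronic peak at 66.5 was found in Norm-Pro. Neither hypoxic library had a peak in Vegfa or within 5 kb of it.

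The matrix enzymes act on collagen. P4ha1 was open at 95.6 in Norm-Pro, 99.6 in Hyp-Pro, 96.1 in Norm-Sen and 98.0 in Hyp-Imm, and its fold enrichment of 11.1 in Hyp-Pro was the highest of any member in that library. P4ha2 had TSS peaks at passage 1 only (86.4 in Norm-Pro and 84.5 in Hyp-Pro). These lay at different places, and at that of the Norm-Pro peak Hyp-Pro ranked at 67.2. The P4ha2 intron, 12081 bp from the nearest start, was open in all 4 libraries and differed in rank. It stood at 6.55 in Norm-Pro, 97.5 in Hyp-Pro, 81.2 in Norm-Sen and 76.8 in Hyp-Imm. Norm-Pro was the low library there. Lox, which cross-links collagen, ranked at 85.6 in Hyp-Imm, 71.2 in Norm-Pro and 54.6 in Norm-Sen and had no peak in Hyp-Pro. The Hyp-Imm peak of Lox lay at a separate place where no other library had a peak. At the place of the Norm-Pro and Norm-Sen peaks Hyp-Imm had none.

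Among the regulators and stress genes, Kdm3a stayed near the top of each list, at 98.1 in Norm-Pro, 97.7 in Hyp-Pro, 99.5 in Norm-Sen and 99.3 in Hyp-Imm. Ankrd37 ranked at 98.1, 98.5, 97.7 and 91.4, at a place that is also the start of Lrp2bp. Bhlhe40 ranked at 94.5, 96.0, 87.0 and 94.8, and a region 7676 bp from its start was open in all 4 libraries as well.

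The strongest TSS peak of Mxi1 lay at different starts. Its strongest peak in Norm-Pro (80.5) and Hyp-Pro (88.6) lay at an internal start that had no peak in Norm-Sen, whose strongest TSS peak lay at the 5′ end (46.9), as did that of Hyp-Imm (79.5). Ddit4, an inhibitor of mTOR signalling, ranked at 97.9, 91.8, 95.8 and 91.0 in Norm-Pro, Hyp-Pro, Norm-Sen and Hyp-Imm. Ndrg1 ranked at 87.7, 93.9 and 91.9 in the first 3 of these and had no peak in or around the gene in Hyp-Imm.

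The 18 members open in all 4 libraries did not share an order. Norm-Sen was lowest for 6 of them (33.3%), Slc2a1, Ldha, Pdk1, Bnip3, Mxi1 and Bhlhe40, and was lowest for 16.2% of the 5492 genes open in all 4. For Slc2a1, Mxi1 and Bhlhe40 the strongest Norm-Sen peak did not lie at the place of the strongest Norm-Pro peak: that of Slc2a1 was 582 bp downstream of the TSS in Norm-Sen and at -52 bp in Norm-Pro. Norm-Sen was highest for another 6, Gpi1, Aldoa, Gapdh, Pgam1, Bnip3l and Kdm3a (33.3%, against 29.3% of the 5492 genes). The same 6 members were lowest in Norm-Sen when peaks were ranked by fold enrichment or among TSS peaks only. Hyp-Imm was lowest for 9 (50%), beside 50.2% of the 5492 genes. By the file names the library labelled Norm-Sen would be the passage 1 library in hypoxia.

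Over these 18 members, the percentile at 20% minus that at 3% oxygen had a median of 0.58 at passage 1 (10 higher at 20%, 8 higher at 3%, from -8.14 to 17.9) and 2.49 in the late pair (11 and 7, from -52.4 to 35.6). For the 5492 genes the medians were 1.96 and 6.15. Bnip3 had the lowest late difference and Pfkfb3 the highest. By the file names the median differences were 1.02 at passage 1 (10 higher at 20%, 8 at 3%) and -5.55 in the late pair (5 and 13), beside -1.06 and -7.52 for the 5492 genes.

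All 36 members had a peak in the gene or within 5 kb in Norm-Pro (73.3% of all genes had), 32 in Hyp-Pro (67.2%), 33 in Norm-Sen (71.4%) and 27 in Hyp-Imm (56.2%). Within the members or 5 kb of them lay 100 peaks in Norm-Pro, 86 in Hyp-Pro, 80 in Norm-Sen and 50 in Hyp-Imm. These are 14.5, 18.1, 13.0 and 13.2 of every 10000 peaks of the library (exact intervals 11.8 to 17.6, 14.5 to 22.3, 10.3 to 16.2 and 9.83 to 17.4). The intervals treat peaks as independent and cover counting error within a library only, so they do not compare conditions. At passage 1, 16 members had more peaks at 20% and 8 at 3% oxygen (44.4% and 22.2%, against 40.4% and 20.8% of all genes). In the late pair 24 had more at 20% and 5 at 3% (66.7% and 13.9%, against 49.3% and 14.0%). Counts were equal for 12 of 36 members and 8472 of 21827 genes at passage 1. In the late pair they were equal for 7 members and 8012 genes. By the file names these libraries are paired otherwise, with 86 peaks at 20% and 80 at 3% oxygen at passage 1 and 50 and 100 in the late pair. At passage 1, 14 members then had more peaks at 20% and 9 at 3% (38.9% and 25%, against 23.2% and 37.1% of all genes). In the late pair 3 had more at 20% and 25 at 3% (8.33% and 69.4%, against 12.3% and 52.2%).

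**Figure D4:**
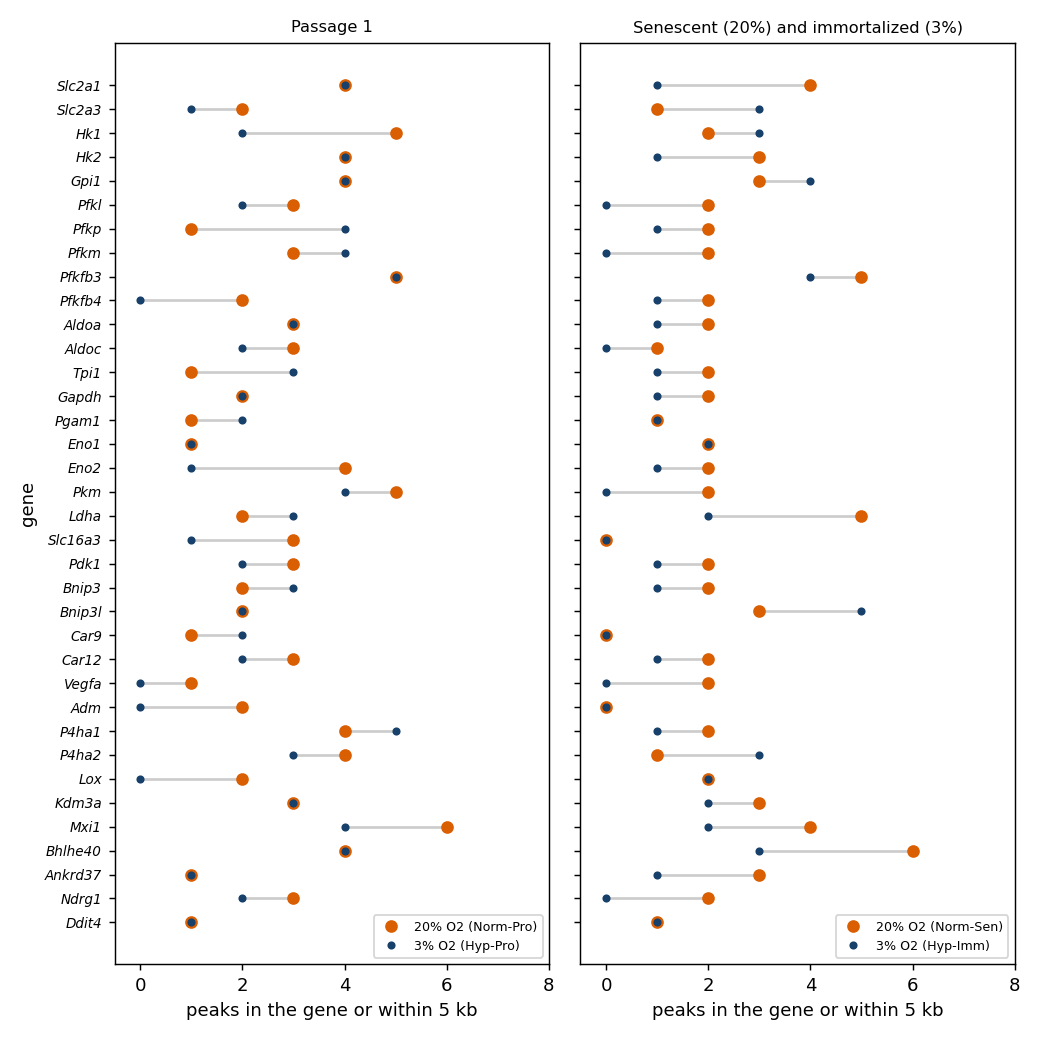
Number of ATAC-seq peaks in each member or within 5 kb of it (x axis) at 20% O2 (orange) and 3% O2 (blue), for the passage 1 libraries (left) and the senescent and immortalized libraries (right). Ldha has 5 peaks in Norm-Sen and 2 in Hyp-Imm, and Bnip3l has 3 and 5.

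After adjoining and overlapping ATAC-seq peaks were joined, 165 regions lay at the members. Of these 22 (13.3%) were found in all 4 libraries, against 5.12% of the 93669 regions at all genes, and 99 (60.0%) in 1 library, against 80.6%. A total of 17 of the 22 lay at a TSS. The other 5 were the introns of Pfkfb3 and P4ha2, the regions upstream of Gpi1 and downstream of Bhlhe40, and a region downstream of Eno2 that is the start of its neighbour Atn1. Of 52 intronic regions 44 were found in 1 library. These counts by place have no share over all genes beside them. In both normoxic and neither hypoxic library lay 9 regions (5.45%, against 3.08%), and the reverse was found for 1 (0.606%, against 0.553%). These 2 counts are exchanged by the file names.

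Other genes of the same pathways, 55 in number, were open at the TSS in 36 cases in Norm-Pro (65.5%), 37 in Hyp-Pro (67.3%), 40 in Norm-Sen (72.7%) and 23 in Hyp-Imm (41.8%). For all genes the shares were 52.6%, 47.4%, 50.7% and 33.4% in the same order. In all 4 libraries 21 of the 55 were open (38.2%, against 25.2% of all genes). They included Pgk1, phosphoglycerate kinase, Slc16a1, a lactate transporter, and both subunits of the mitochondrial pyruvate carrier, Mpc1 and Mpc2. Tigar, a fructose bisphosphatase, and Plod1, a lysyl hydroxylase of collagen, were open in both normoxic and neither hypoxic library (3.64%, against 4.11% of all genes), and none of the 55 showed the reverse (against 0.467%). Both would, by the file names, be open in the hypoxic libraries alone. At passage 1, 4 of the 55 were open at 20% only (7.27%, against 11.4%) and 5 at 3% only (9.09%, against 6.23%). In the late pair 17 were open at 20% only (30.9%, against 22.0%) and 0 at 3% only (against 4.60%). No TSS peak was found for 13 genes (23.6%, against 34.9% of all genes). Among these, Pgk2, Eno3, Hk3, Pgam2, Slc2a2 and Ldhc encode forms known from testis, muscle, liver or blood cells, and Angptl4, Loxl2, Stc2, Ak4 and Pgf are other HIF targets.

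Cores of the hypoxia response element were counted at the members' promoters. In the 300 bases around the start nearest to the strongest TSS peak (250 before and 50 after it), searched on both strands, 28 of 36 members had ACGTG or GCGTG (77.8%, 60.8 to 89.9) beside 49.2% of all genes. For genes without a TSS peak the annotated 5′ end was used. These were 2 members, both with a core, and 7612 of 21822 genes, of which 26.0% had one. Such genes lower the share of all genes. With ACGTG alone 20 members had it (55.6%, 38.1 to 72.1) beside 20.7%. The palindrome CACGTG, which overlaps ACGTG, stood in the promoters of 2 members, Ldha and Bnip3 (5.56%), and in 7.85% of all promoters. Eno1 had 5 cores and Ldha 6, the most of any member, and Gpi1, Aldoc, Tpi1, Eno2, Pkm, Vegfa, Slc2a3 and Kdm3a had none in this window.

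The share depended on the start and the window. In 200 bases at the summit of the strongest TSS peak, 22 of 34 open members had a core (64.7%, 46.5 to 80.3), beside 52.8% of open genes, and the interval includes that share. At the annotated 5′ end 19 members had a core (52.8%, 35.5 to 69.6), beside 47.6% of all genes, and ACGTG stood in 12 (33.3%) beside 20.5%. A total of 10 members had a core at the start nearest to the peak and none at the 5′ end, among them Ldha, Ankrd37, P4ha2, Slc16a3, Car12 and Lox, and Slc2a3 had the reverse. Among genes open in all 4 libraries, 16 of 18 members had a core (88.9%, 65.3 to 98.6) beside 70.5% of 5491 genes, and ACGTG stood in 13 (72.2%, 46.5 to 90.3) beside 27.8%. Among those open in 1 to 3 libraries, 10 of 16 members had a core (62.5%, 35.4 to 84.8) beside 56.2%. For ACGTG or GCGTG, the intervals of both these groups include the share of all genes in the group. Base composition differed over the whole list: the median CpG ratio, observed over expected, was 0.726 for the 36 members and 0.588 for all genes, and the GC content was 64.3% and 56.7%. Among genes open in all 4 libraries the CpG ratios were 0.816 and 0.833. The part of base composition in the share of cores was not tested.

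**Figure D5:**
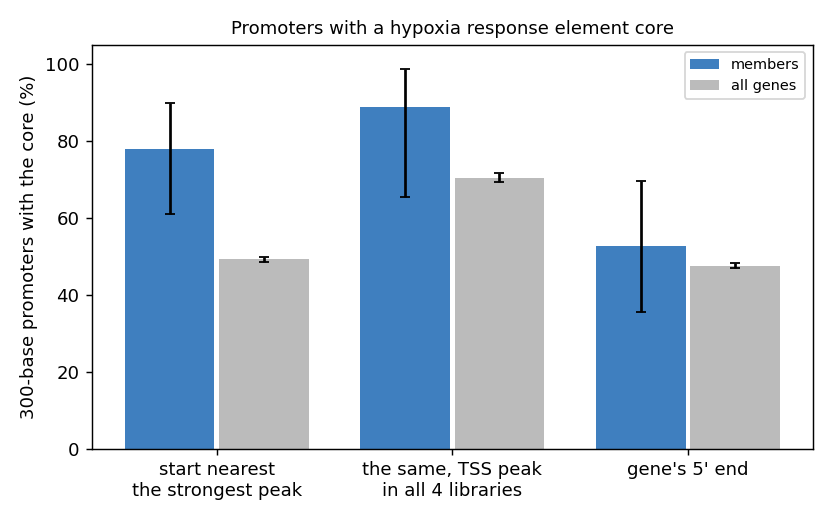
Percent of 300-base promoters that hold ACGTG or GCGTG on either strand (y axis), for members (blue) and all genes (grey), at the start nearest the strongest TSS peak, the same among genes open in all 4 libraries, and the 5′ end of the gene (x axis). In the first pair of bars, genes without a TSS peak were read at the 5′ end. Bars carry 95% exact intervals, and members reach 77.8%, 88.9% and 52.8% against 49.2%, 70.5% and 47.6%.

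The open introns shown above also held cores. That of Pfkfb3 has 5, among them 2 CACGTG palindromes, and that of P4ha2 has 1, a CACGTG. Of 829 regions open in all 4 libraries and more than 1 kb from any TSS, 49.3% held a core in 300 bases at the centre, 7.60% a CACGTG and 2.05% at least 5 cores.

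Tfcp2l1 peaks were few near the members. In senescent MEFs in normoxia 1 member, Car9, had 1 of the 393 peaks within 100 kb of a TSS (2.78%, 0.0703 to 14.5, against 4.71% of all genes). In immortalized MEFs in hypoxia 6 members had 1 each of the 612 peaks, namely Pfkp, Pfkm, Aldoa, Ldha, Slc16a3 and Car9 (16.7%, 6.37 to 32.8, against 6.53%). The lower bound of that interval lies just under the background. No peak of either library lay within 10 kb of a member TSS, but the share of all genes at that distance was not computed.

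The peak near Car9 was the strongest of them. It lay 14.0 kb upstream in senescent MEFs (fold enrichment 11.1, rank 121 of 393 by −log10 q) and 14.1 kb upstream in immortalized MEFs (11.3, rank 80 of 612), and it was open in all 4 ATAC-seq libraries. The place is Rmrp, the gene of the RNA of RNase MRP, transcribed by RNA polymerase III. Of all Tfcp2l1 peaks, 165 of the 393 and 125 of the 612 lay on tRNA genes, and the peak near Car9 was not among them. The sequence is shown on the plus strand, unmarked, because the Car9 peak was the nearest to a member TSS.
Car9, chr4:43492779-43493078, plus strand: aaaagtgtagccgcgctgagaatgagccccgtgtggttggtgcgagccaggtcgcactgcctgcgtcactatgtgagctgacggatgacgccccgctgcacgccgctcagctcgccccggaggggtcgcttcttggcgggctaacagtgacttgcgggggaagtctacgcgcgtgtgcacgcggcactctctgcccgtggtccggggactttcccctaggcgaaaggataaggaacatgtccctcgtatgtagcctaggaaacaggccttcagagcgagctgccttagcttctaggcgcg

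The other 5 peaks ranked from 204 to 564 of the 612 in immortalized MEFs. That near Aldoa lay 16.1 kb away in Tbx6 (fold enrichment 5.84, rank 470). The peak 88.4 kb from Ldha lay in Uevld (7.49, rank 204) and overlapped ATAC-seq peaks of Norm-Pro and Hyp-Imm. Those near Slc16a3 (58.6 kb, rank 529), Pfkm (86.5 kb, rank 247) and Pfkp (90.8 kb, rank 564) overlapped none. The remaining 30 members had no peak of either library within 100 kb.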

How the data were processed

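ATAC-seq reads had been mapped by the authors to mouse GRCm38 (mm10) using Bowtie2. Pairs over 2 kb apart were discarded, read ends were moved to the point of Tn5 insertion, and MACS2 peaks were called in single libraries below an FDR of 0.05. For ChIP-seq, the submitters' notes name Bowtie and MACS2. The deposited columns give each peak's fold enrichment (a ratio to the local background, made by the authors with MACS2) and the −log10 p-value and −log10 q-value at the summit. The deposited score was not used. The ChIP-seq peaks were read on GRCm38, although no source used here names their build. Whole reads are not held, so the depth of each value is unknown beyond the steps of fold values.

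Genes were those of GENCODE M21 (basic, protein-coding). Every member is named, and other pathway genes are named when open in both libraries of 1 oxygen level and neither of the other, or in none, except for some that are not reported here. The 4 pathway genes named as open in all 4 libraries were chosen after their values were seen. The members and lists were chosen with earlier results of these data known. Python 3.11.15, pandas 2.3.3, numpy 2.4.6 and scipy 1.17.1 were used. Peak assignment was tested on simulated peaks. Alternatives were another peak threshold, lists cut to the same number of peaks, other windows, start sites, rankings, distances, cores and the conditions by the file names. The core count at the 5′ end of the gene, and ranks and peaks per gene by the file names, were added after seeing the data.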

Additional observations from a re-analysis of the deposited data

How the results depend on the processing

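Of 107 alternative values, 73 stayed within 1.5 times the value reported or within its interval or spread, and 34 moved. The 73 include a change of sign: the late median difference in percentile was 2.49 by the labels and -5.55 by the file names. It counted as unmoved because the shift was smaller than the spread over members (standard deviation 23.2). At a −log10 q of at least 5, TSS peaks in Hyp-Imm fell to 11 members (30.6%, against 11.1% of all genes). The peaks near members fell to 49 in Norm-Pro, 34 in Hyp-Pro, 42 in Norm-Sen and 12 in Hyp-Imm. The members open at 20% only were then 2 at passage 1 (against 11.3% of all genes) and 14 in the late pair (against 21.9%). Those open at 3% only were 0 (against 5.93%) and 4 (Slc2a1, Tpi1, Ldha and Bnip3, against 1.79%). In both normoxic libraries alone 2 were open (Pfkm and Pfkfb4, against 4.75%). With an equal number of peaks, 2 members were open at 3% only in the late pair (against 6.57%) and 0 in both normoxic libraries alone (against 2.99%). A TSS window of 0.5 kb left 0 open at 3% only in the late pair. A window of 2 kb gave 2 at 3% only at passage 1 and 1 in both hypoxic libraries alone. At the 5′ end of the gene the members open at 3% only were 2 at passage 1 and 0 in the late pair. Shares of all genes were not computed for these counts at other windows and starts. By the file names the counts were 1 and 4 at passage 1 (against 7.33% and 10.7% of all genes) and 2 and 11 in the late pair (against 3.83% and 23.1%). They were 0 in both normoxic (against 0.467%) and 1 in both hypoxic libraries alone (against 4.11%). In the late pair 3 members then had more peaks at 20% and 25 at 3% (against 12.3% and 52.2%). Ranked among TSS peaks only, the median percentile was 81.2 in Norm-Pro and 78.2 in Hyp-Pro, and ranked by fold enrichment 77.2 in Hyp-Pro. Members with a Tfcp2l1 peak were 0 and 0 within 10 kb and, in immortalized MEFs, 2 within 50 kb and 3 at a −log10 q of at least 5. For these Tfcp2l1 counts too, shares of all genes were not computed. Cores stood in 55.6% of member promoters for ACGTG only and 52.8% at the 5′ end. The cause of these shifts was not tested.

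No paired analysis was possible because each condition has 1 library, and for the same reason no library was left out. Counts by oxygen rest on the sample labels, on few peaks near the threshold and on libraries of unequal depth, and the absence of a peak is not the absence of open chromatin.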
